A study of Mus musculus with 2 samples.

Results

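Receptor tyrosine kinases of the platelet-derived growth factor (PDGF), KIT and vascular endothelial growth factor (VEGF) receptor groups and their ligands were followed in mouse extraembryonic endoderm stem (XEN) cells. The 10 genes were taken by symbol from a table of 26127 genes: the receptors Pdgfra, Pdgfrb, Kit, Flt1 and Kdr and the ligands Pdgfa, Pdgfb, Pdgfc, Pdgfd and Kitl. XEN cells are lines derived from the primitive endoderm of the blastocyst, the layer whose descendants line the yolk sac as visceral and parietal endoderm. Cells of PS10, a female line of the ICR strain, received by lipid transfection either a locked nucleic acid (LNA) directed against Gata6-AS, a noncoding RNA transcribed antisense beside the endoderm factor gene Gata6, or a control LNA. Each group was 1 library of total RNA from this single line, so no spread between cultures was measured, no test between conditions was made, and every difference compares these 2 libraries rather than the conditions. The titles of the samples name siRNA, and the protocol names locked nucleic acid.

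PDGF ligands are dimers that bring together receptor chains, which then phosphorylate each other and recruit adaptor proteins. PDGFRalpha, the product of Pdgfra, is a surface marker of the primitive endoderm, in which it supports the survival and expansion of the lineage, while PDGFRbeta is best known from mesenchyme and pericytes. KIT, the receptor for the ligand encoded by Kitl, belongs to the same receptor class and is best known from blood, germ and pigment cells. FLT1 and KDR are receptors of the VEGF family and act chiefly in endothelium, where KDR carries most of the signal and FLT1 binds the same ligand more tightly with weaker kinase output.

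Levels are given as RPKM, computed by the authors as reads per kilobase and per 1000000 reads. The values correspond to 1.23e+08 reads in the Gata6-AS LNA library and 1.04e+08 in the control LNA library. A value of 0 over a kilobase of transcript allows up to 0.0244 RPKM in the Gata6-AS LNA library and 0.0290 RPKM in the control LNA library. The targeted RNA, listed under the older name 1010001N08Rik, stood at 5.83 RPKM in the Gata6-AS LNA library and 10.1 RPKM in the control LNA library. That is 57.8% of control, and the exact 95% interval (Clopper-Pearson) ran from 50.5% to 66.1%. Like all others here, this interval covers counting error only. The gene lies beside Gata6 on the opposite strand, and the sources used here do not say whether counting used the strand. Reads of any stretch shared with Gata6 may therefore count for either gene. All 10 XEN markers were expressed in both libraries, with a summed level of 4491 RPKM in the Gata6-AS LNA library and 5981 RPKM in the control LNA library. The highest of them, Sparc, stood at 1689 RPKM in the Gata6-AS LNA library and 2104 RPKM in the control LNA library. Of 6 pluripotency markers 5 were below 0.1 RPKM in both libraries, Nanog being highest at 5.07 RPKM in the Gata6-AS LNA library and 4.61 RPKM in the control LNA library. Of 6 trophoblast markers 3 were below 0.1 RPKM in both libraries, and 0 reached a mean of 1 RPKM. Cdx2 was highest at 1.19 RPKM in the Gata6-AS LNA library and 0.653 RPKM in the control LNA library. Eomes and Krt7 were also above 0.1 RPKM in both.

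Promoter sequences are shown for Kit and Kitl, the receptor and ligand pair that was lowest relative to control among the expressed members, for Pdgfra, the gene with the highest level, and for Pdgfa, the expressed ligand furthest above control. Each run is the 250 bases before the most upstream annotated start, 5′ to 3′ on the strand of the gene, from RefSeq on GRCm38.p6. Capitals mark matches to any motif searched.
Kit: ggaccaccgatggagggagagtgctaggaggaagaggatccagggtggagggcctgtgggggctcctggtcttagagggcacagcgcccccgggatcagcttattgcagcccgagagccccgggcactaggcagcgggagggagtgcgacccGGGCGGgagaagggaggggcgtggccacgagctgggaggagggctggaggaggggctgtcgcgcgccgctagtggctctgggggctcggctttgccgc
Kitl: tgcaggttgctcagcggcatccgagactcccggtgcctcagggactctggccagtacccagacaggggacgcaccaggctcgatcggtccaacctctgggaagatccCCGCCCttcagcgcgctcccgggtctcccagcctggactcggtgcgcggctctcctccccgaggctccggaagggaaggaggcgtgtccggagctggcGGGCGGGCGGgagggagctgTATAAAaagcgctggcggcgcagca
Pdgfra: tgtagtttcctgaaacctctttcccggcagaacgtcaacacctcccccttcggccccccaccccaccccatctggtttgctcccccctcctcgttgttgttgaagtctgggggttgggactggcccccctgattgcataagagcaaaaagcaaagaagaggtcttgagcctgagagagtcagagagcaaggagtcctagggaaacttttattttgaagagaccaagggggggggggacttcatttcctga
Pdgfa: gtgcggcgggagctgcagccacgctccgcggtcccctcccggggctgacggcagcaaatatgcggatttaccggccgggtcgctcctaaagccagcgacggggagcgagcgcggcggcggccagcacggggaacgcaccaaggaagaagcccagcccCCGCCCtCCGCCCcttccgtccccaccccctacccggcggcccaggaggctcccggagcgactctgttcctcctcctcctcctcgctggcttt
These windows are chr5:75574737-75574986 on the plus strand for Kit, chr10:100015571-100015820 on the plus strand for Kitl, chr5:75152001-75152250 on the plus strand for Pdgfra and chr5:138994945-138995194 on the minus strand for Pdgfa. The motifs were searched on both strands: GATA words (AGATA or TGATA, followed by A or G), the GC box GGGCGG, the TATA word TATAAA and the cyclic AMP response element TGACGTCA. Among 32841 RefSeq promoter windows of this length, 26.5% held a GATA word, 32.7% a GC box, 12.4% the TATA word and 1.55% the cyclic AMP response element. The Kit window held 1 GC box, beginning 98 bases before the start. The Kitl window held 3 GC boxes, beginning 143, 45 and 41 bases before the start, of which the last 2 overlap, and a TATA word beginning 25 bases before it. The Pdgfa window held 2 GC boxes, beginning 93 and 86 bases before the start, and the Pdgfra window held none of these motifs. Kit, Kitl and Pdgfa windows were 70.8%, 69.2% and 72.4% G and C, against 54.4% for Pdgfra. Among the 8 members with a window examined, Pdgfd was the one with a GATA word and Flt1 the one with the cyclic AMP response element. A match is a run of letters and does not show binding, and these are sequences of the reference genome.

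In the Gata6-AS LNA library 4 of 5 receptors were lower than in the control LNA library, with Kit lowest relative to control, and Pdgfrb was higher. Pdgfa and Pdgfd, the PDGF ligand genes above 1 RPKM, were higher, while Kitl was lower. The measure used for gene counts was the difference of log2(RPKM + 1), Gata6-AS LNA minus control LNA, over genes whose mean of both libraries was 1 RPKM or more. Of the 8 members that reached this mean, 5 were below 0 and 3 above, with a median difference of -0.41. The same median over all 10869 expressed genes was 0.048, with 42.0% below 0. One gene, Kit, was at least 2-fold lower among the 8 expressed members, against 0.451% of all expressed genes, and 0 were at least 2-fold higher, against 0.331%. With a 1.5-fold limit, 2 members were lower (Kit and Kitl), against 1.95% of expressed genes, and 1 was higher (Pdgfa), against 3.42%. In bulk RNA, a smaller share of cells with a transcript and less of it per cell cannot be told apart.

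**Figure D1:**
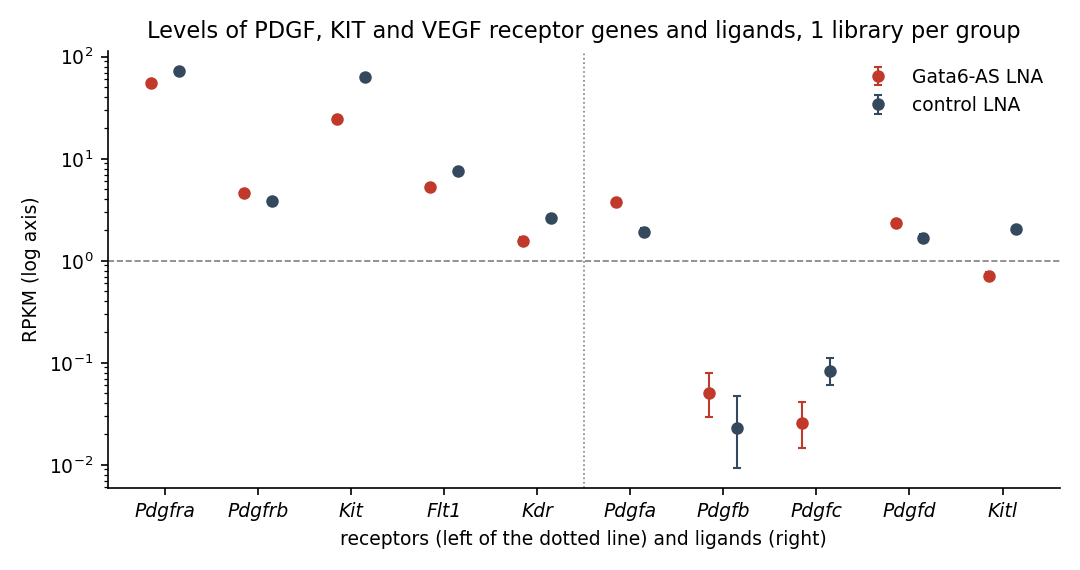
RPKM of each gene on a log axis, with the Gata6-AS LNA library (red) left of the control LNA library (dark); bars are exact 95% Poisson intervals from the least number of reads and the dashed line is 1 RPKM. Pdgfra and Kit stand highest in both libraries, and Pdgfb and Pdgfc lie below 0.1 RPKM in both.

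Pdgfra, which encodes the alpha receptor, had the highest level of the 10 genes in both libraries, at 55.9 RPKM in the Gata6-AS LNA library and 72.5 RPKM in the control LNA library. Its level was thus 77.2% of control (95% interval 76.2% to 78.2%, 46339 and 50550 reads or more), a log2 difference of -0.37. Its difference was at percentile 6.20 of those of all expressed genes. The XEN markers listed beside it were lower in 8 of 10 cases, with a median log2 difference of -0.43. Over all expressed genes 42.0% were below 0, with a median of 0.048. Sox7 stood at 40.9% of control, Gata6 at 68.0% and Sox17 at 74.3%, while Foxa2 stood at 102% and Dab2 at 140%. Their part in the value of Pdgfra was not tested. In the mm9 assembly used by the authors Pdgfra lies on chromosome 5, plus strand, from 75548316 to 75594229.

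Pdgfrb, which encodes the beta receptor, stood at 4.61 RPKM in the Gata6-AS LNA library and 3.82 RPKM in the control LNA library. This was 121% of the control level (95% interval 110% to 133%, 1036 and 723 reads or more), a log2 difference of 0.22 that lay within the bulk of expressed genes, at percentile 76.1 of their differences. It was the receptor among the 5 that was higher in the Gata6-AS LNA library. The gene is on chromosome 18, plus strand, from 61204804 to 61244715 (mm9). With Pdgfra lower and Pdgfrb higher, the level of Pdgfra was 12.1 times that of Pdgfrb in the Gata6-AS LNA library and 19.0 times in the control LNA library. Of 10 markers of mesenchyme and pericytes, the cells in which Pdgfrb is usually studied, 8 were below 0.1 RPKM in both libraries. Among these 8 were the fibrillar collagen genes Col1a1, Col1a2 and Col3a1. Des was above that limit, at 0.769 RPKM in the Gata6-AS LNA library and 0.785 RPKM in the control LNA library. Acta2 was higher than Pdgfrb, at 8.66 RPKM in the Gata6-AS LNA library and 7.32 RPKM in the control LNA library. Acta2, which encodes smooth muscle actin and is not confined to those cells, made up most of the list's summed level of 9.51 RPKM in the Gata6-AS LNA library and 8.18 RPKM in the control LNA library.

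Kit had the second highest level in both libraries, at 24.6 RPKM in the Gata6-AS LNA library and 63.9 RPKM in the control LNA library. Its level was 38.5% of control (95% interval 37.7% to 39.4%, 11626 and 25432 reads or more). Its log2 difference of -1.34 was at percentile 0.193 of the differences of all expressed genes. In the control LNA library Pdgfra and Kit were nearly level, at a ratio of 1.13, whereas in the Gata6-AS LNA library Pdgfra was 2.27 times Kit. Kit lies on chromosome 5, plus strand, from 75970941 to 76052747 (mm9), and no other gene of the table overlaps it. Kit is also a marker of blood progenitor, mast and germ cells. The 8 markers listed for these cells were all below 0.1 RPKM in both libraries, Dazl being highest, with a summed level of 0.0790 RPKM in the Gata6-AS LNA library and 0.101 RPKM in the control LNA library.

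Kitl, which encodes the KIT ligand (stem cell factor), was lower together with its receptor, at 0.713 RPKM in the Gata6-AS LNA library and 2.07 RPKM in the control LNA library. Its level was 34.4% of control (30.9% to 38.1%, 512 and 1255 reads or more). The pseudocount of 1 RPKM compresses differences of genes at this level, and on that scale the log2 difference was -0.84, at percentile 0.727. The ratio of Kit to Kitl was 34.5 in the Gata6-AS LNA library and 30.8 in the control LNA library. Kitl lies on chromosome 10, plus strand, from 99478264 to 99563047 (mm9), away from its receptor gene.

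Both VEGF receptor genes were lower. Flt1 stood at 5.28 RPKM in the Gata6-AS LNA library and 7.66 RPKM in the control LNA library, or 69.0% of control (66.9% to 71.1%, 7526 and 9189 reads or more), with a log2 difference of -0.46. Kdr stood at 1.56 RPKM in the Gata6-AS LNA library and 2.61 RPKM in the control LNA library, or 59.7% of control (52.9% to 67.3%, 464 and 655 reads or more), with a log2 difference of -0.50. Flt1 was the more abundant of the pair, 3.40 times Kdr in the Gata6-AS LNA library and 2.94 times in the control LNA library. In the RPKM table a soluble form of FLT1 cannot be told from the full receptor. Both genes are on chromosome 5, minus strand, Flt1 at 148373180 to 148537587 and Kdr at 76328852 to 76374483 (mm9).

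Since FLT1 and KDR act chiefly in endothelium, 8 endothelial markers were read beside their genes. Pecam1, Tie1, Cldn5, Emcn and Eng were below 0.1 RPKM in both libraries, and Cldn5 and Emcn were at 0 in both. Cdh5, the endothelial cadherin, stood at 0.331 RPKM in the Gata6-AS LNA library and 0.586 RPKM in the control LNA library. Tek, the angiopoietin receptor, was the exception at 16.2 RPKM in the Gata6-AS LNA library and 23.3 RPKM in the control LNA library, or 69.5% of control (66.8% to 72.2%). It carried most of the list's summed level of 17.8 RPKM in the Gata6-AS LNA library and 24.9 RPKM in the control LNA library. Esam, a junction adhesion molecule, stood near 1 RPKM in both.

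Pdgfa, which encodes the A chain, a ligand of the alpha receptor, was the member furthest above control among those expressed. It stood at 3.78 RPKM in the Gata6-AS LNA library and 1.92 RPKM in the control LNA library. This was 197% of the control level (179% to 217%, 1451 and 621 reads or more), with a log2 difference of 0.71 at percentile 98.5. Pdgfd, whose product binds the beta receptor after proteolytic release of its growth factor domain, stood at 2.37 RPKM in the Gata6-AS LNA library and 1.69 RPKM in the control LNA library. This was 140% of the control level (126% to 156%, 910 and 547 reads or more), with a log2 difference of 0.32 at percentile 85.8. Pdgfa and Pdgfd were thus both higher, while of the PDGF receptor genes Pdgfra was lower and Pdgfrb higher.

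Pdgfb and Pdgfc were close to the limit of detection. Pdgfb, whose product binds both PDGF receptors, stood at 0.0502 RPKM in the Gata6-AS LNA library and 0.0232 RPKM in the control LNA library, from at least 18 and 7 reads. The interval of its ratio, 86.3% to 614% of control, includes 100%. Pdgfc, another ligand of the alpha receptor that is released by proteolysis, stood at 0.0256 RPKM in the Gata6-AS LNA library and 0.0835 RPKM in the control LNA library, from at least 16 and 44 reads. It was at 30.6% of control (16.1% to 55.4%), against the direction of Pdgfa. The 4 PDGF ligand genes summed to 6.23 RPKM in the Gata6-AS LNA library and 3.72 RPKM in the control LNA library, and both PDGF receptor genes to 60.6 RPKM in the Gata6-AS LNA library and 76.3 RPKM in the control LNA library. In mm9 Pdgfa lies on the minus strand of chromosome 5 (139451968 to 139473324), Pdgfb on the minus strand of chromosome 15 (79826330 to 79845238), Pdgfc on the plus strand of chromosome 3 (80840338 to 81017962) and Pdgfd on the plus strand of chromosome 9 (6168612 to 6378843). Other rows of the table overlap Pdgfa, Pdgfc and Pdgfd, and the highest of these stood at 0.0413 RPKM in the Gata6-AS LNA library and 0.0420 RPKM in the control LNA library.

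**Figure D2:**
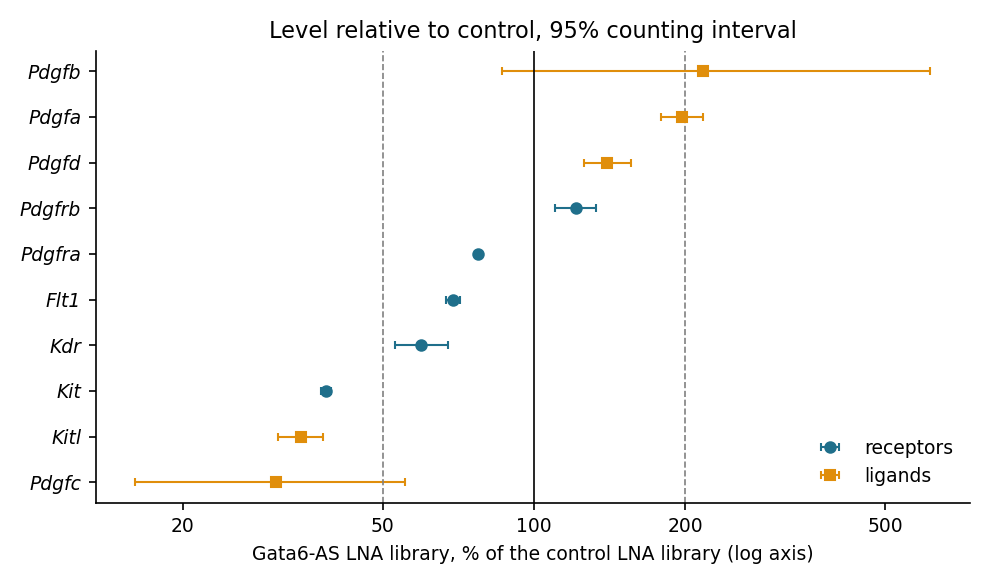
Level in the Gata6-AS LNA library as a percentage of the control LNA library on a log axis, with exact 95% counting intervals, for receptors (circles) and ligands (squares); dashed lines mark 2-fold either way. Kit, at 38.5%, and Kitl, at 34.4%, lie left of the lower dashed line with their whole interval, and the widest interval is that of Pdgfb.

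The order of the levels differed between the libraries below the fourth place. In the Gata6-AS LNA library Pdgfra, Kit, Flt1 and Pdgfrb were followed by Pdgfa, Pdgfd, Kdr, Kitl, Pdgfb and Pdgfc. In the control LNA library the same 4 receptors were followed by Kdr, Kitl, Pdgfa, Pdgfd, Pdgfc and Pdgfb. Neighbours whose counting intervals overlapped were Pdgfb and Pdgfc in the Gata6-AS LNA library, and Kitl and Pdgfa, and Pdgfa and Pdgfd, in the control LNA library. Pdgfa thus stood in place 5 in the Gata6-AS LNA library and place 7 in the control LNA library, and Kitl stood in place 8 in the Gata6-AS LNA library and place 6 in the control LNA library.

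In the authors' deposited table of genes selected by p-value, which lists 2099 genes or 8.03% of the 26127, 6 of the 10 members appear. The largest p-value in the authors' deposited table is 0.07499. Among expressed genes 11.9% are listed in the authors' deposited table, and 5 of the 8 expressed members are. Kitl is placed 27 by p in the authors' deposited table, with a log2 difference of -1.65 (p = 6.40e-06). Kit is placed 55 in the authors' deposited table, with a log2 difference of -1.35 (p = 4.16e-05). The authors' deposited table further gives -1.86 for Pdgfc (p = 0.00340), -0.85 for Kdr (p = 0.00968), 0.86 for Pdgfa (p = 0.0280) and -0.55 for Flt1 (p = 0.0329). Pdgfra, Pdgfrb, Pdgfb and Pdgfd are not listed there. All these p-values come from 1 library per group, by a test that the sources used here do not name, and they rest on the same reads as the RPKM values.

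Pdgfra, Kit and Kdr stand side by side on chromosome 5, an arrangement shared by mammals, and were read with their neighbours. The stretch from the start of Pdgfra to the end of Kdr spans 826 kb in mm9, with 377 kb between Pdgfra and Kit and 276 kb between Kit and Kdr. Within 1 Mb on either side, 14 of 26 genes were expressed, of which 8 were below 0 and 6 above on the log2(RPKM + 1) scale. Without Pdgfra, Kit and Kdr, 5 were below 0 and 6 above. All 7 expressed genes from Chic2 to Clock, a run chosen after its values were seen, were lower in the Gata6-AS LNA library. The run ends where the sign changes, so its common direction follows from that choice. Besides Pdgfra, Kit and Kdr these were Chic2 at 72.2% of control (69.6% to 74.9%), the steroid and dolichol pathway reductase gene Srd5a3 at 69.5% (64.4% to 75.1%), the Golgi membrane protein gene Tmem165 at 83.7% (81.4% to 86.1%) and the circadian transcription factor gene Clock at 74.1% (70.0% to 78.5%). Kit lay apart from the other members of the run, whose differences were between -0.50 and -0.25.

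On the far side of Chic2 the 3 expressed genes were higher: the ubiquitin ligase gene Lnx1 at 134% of control (111% to 162%), the polyadenylation factor gene Fip1l1 at 131% (127% to 135%) and Rasl11b at 132% (120% to 146%). Lnx1 and Fip1l1 overlap on opposite strands, so reads of their shared stretch may count for either. Beyond Clock, the exocyst gene Exoc1 stood at 109% (89.5% to 132%), the centriole gene Cep135 at 84.9% (73.6% to 97.9%), Aasdh at 123% (114% to 132%) and the purine synthesis gene Ppat at 104% (101% to 107%). Over chromosome 5 as a whole, the 669 expressed genes had a median difference of 0.038 with 42.2% below 0. The values over all expressed genes were 0.048 and 42.0%. Flt1 and Pdgfa also lie on this chromosome but far outside the window, and they differed from control in opposite directions.

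**Figure D3:**
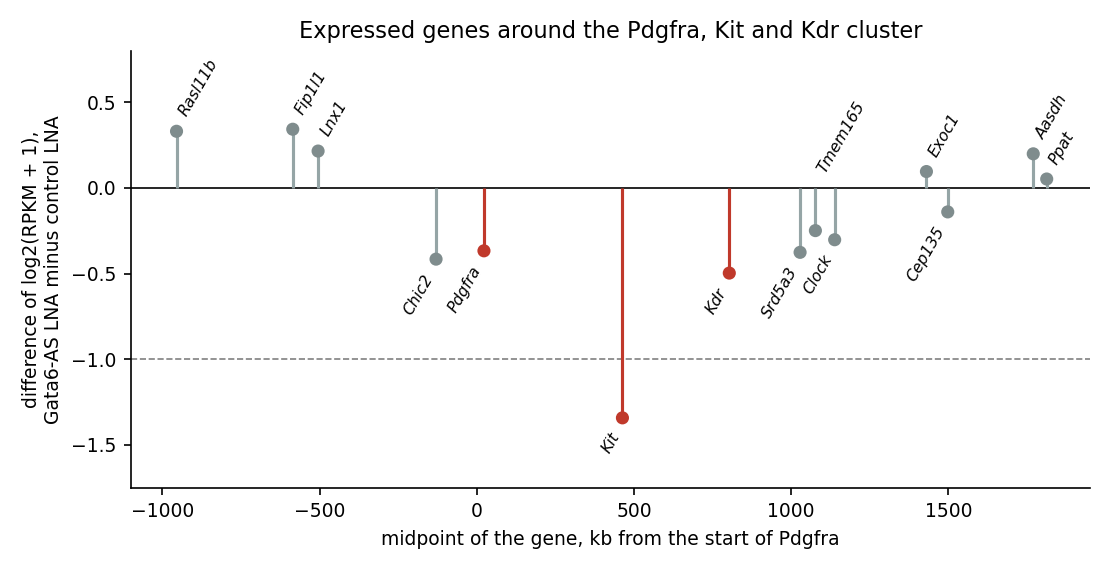
Difference of log2(RPKM + 1), Gata6-AS LNA minus control LNA, for the 14 expressed genes within 1 Mb of the cluster, placed by the distance of their midpoint from the start of Pdgfra in kb; red marks Pdgfra, Kit and Kdr and the dashed line a difference of -1. The 7 genes from Chic2 to Clock lie below 0, and Kit alone passes the dashed line, at -1.34.

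Related receptors and ligands were read from lists of the same receptor classes. Csf1r, the receptor of macrophage colony-stimulating factor and the gene next to Pdgfrb on chromosome 18, stood at 3.12 RPKM in the Gata6-AS LNA library and 2.70 RPKM in the control LNA library, or 115% of control (108% to 123%). The VEGF co-receptor Nrp1 stood at 1.98 RPKM in the Gata6-AS LNA library and 1.21 RPKM in the control LNA library, or 163% of control (149% to 178%). Flt3 was at 0 in both libraries, and Flt4 and Nrp2 did not reach a mean of 1 RPKM. Nrp2 stood at 1.19 RPKM in the Gata6-AS LNA library and 0.702 RPKM in the control LNA library, or 170% of control (155% to 186%).

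Among the ligands of these receptors, Vegfa, the main ligand of FLT1 and KDR, stood at 13.0 RPKM in the Gata6-AS LNA library and 23.5 RPKM in the control LNA library. It was at 55.2% of control (53.6% to 56.9%), lower together with Flt1 and Kdr, while the co-receptor gene Nrp1 was higher. Vegfb, a ligand of FLT1, was close to control at 97.8% (93.6% to 102%), and Pgf, which also binds FLT1, was at 151% (126% to 181%) from 1.72 RPKM in the Gata6-AS LNA library and 1.14 RPKM in the control LNA library. Csf1, the ligand of CSF1R, was at 77.1% (70.8% to 83.8%) and Flt3l, whose receptor was not detected, at 73.4% (64.2% to 83.9%). The other related ligands did not reach a mean of 1 RPKM. Figf stood at 0.328 RPKM in the Gata6-AS LNA library and 0.0922 RPKM in the control LNA library, or 355% of control (224% to 587%). Vegfc was below 0.1 RPKM in both libraries, and Il34 was at 0 in both. The VEGF genes thus did not share a direction.

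Of the proteases that cut PDGF precursors or release the growth factor domains of PDGF-C and PDGF-D, 5 of 7 were expressed. Of these, 4 were below 0 and 1 above, with a median difference of -0.14. Over all expressed genes 42.0% were below 0, with a median of 0.048. Plat, tissue plasminogen activator, which activates PDGF-C, was abundant, at 56.2 RPKM in the Gata6-AS LNA library and 79.3 RPKM in the control LNA library, or 70.8% of control (69.4% to 72.3%). Plau, urokinase, which activates PDGF-D, was at 153% (133% to 177%), from 1.95 RPKM in the Gata6-AS LNA library and 1.27 RPKM in the control LNA library. The proprotein convertases Furin and Pcsk7 were at 78.1% (74.8% to 81.5%) and 88.4% (82.7% to 94.4%).

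The machinery that relays receptor signals was measured throughout: all 34 genes of the relay list were expressed, with 21 below 0 and 13 above and a median difference of -0.10. The differences of this list ran from -0.51 to 0.28, and on this scale 0 of the 34 genes were 1.5-fold lower or higher, against 1.95% and 3.42% of all expressed genes. Those furthest from 0 were Stat5b at 65.3% of control (62.2% to 68.6%), whose near copy Stat5a may share reads with it, the phosphatase and adaptor gene Ptpn11 at 69.2% (64.3% to 74.5%), the Ras exchange factor gene Sos2 at 66.7% (63.2% to 70.3%) and Stat3 at 71.3% (70.1% to 72.5%). Of the attenuators, 14 of 17 were expressed, with 8 below 0 and 6 above and a median of -0.061. Ptpn12, a phosphatase that dephosphorylates receptor tyrosine kinases, stood at 7.05 RPKM in the Gata6-AS LNA library and 13.1 RPKM in the control LNA library, or 54.0% of control (51.6% to 56.5%). Socs3, a feedback inhibitor of cytokine signalling, stood at 13.6 RPKM in the Gata6-AS LNA library and 22.9 RPKM in the control LNA library, or 59.4% (57.2% to 61.6%). The Ras GTPase-activating gene Nf1 was at 69.2% (66.5% to 72.0%), and the ubiquitin ligase gene Cblb at 139% (129% to 149%). Over the 5 related lists together, 60 of 71 genes were expressed, with a median difference of -0.094 and 37 below 0. For this set and for each list, the values over all expressed genes were a median of 0.048 and 42.0% below 0. Of these 60, 0 were 2-fold lower or higher, where the shares over all expressed genes are 0.451% and 0.331%. On the log2(RPKM + 1) scale Vegfa, Ptpn12 and Socs3 were at least 1.5-fold lower, against 1.95% of expressed genes. On that scale 0 were 1.5-fold higher, against 3.42%. The pseudocount compresses differences, so Nrp1, Plau and Pgf stayed under this limit at 163%, 153% and 151% of control. Stat5b, at 65.3% of control, stayed under it too.

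**Figure D4:**
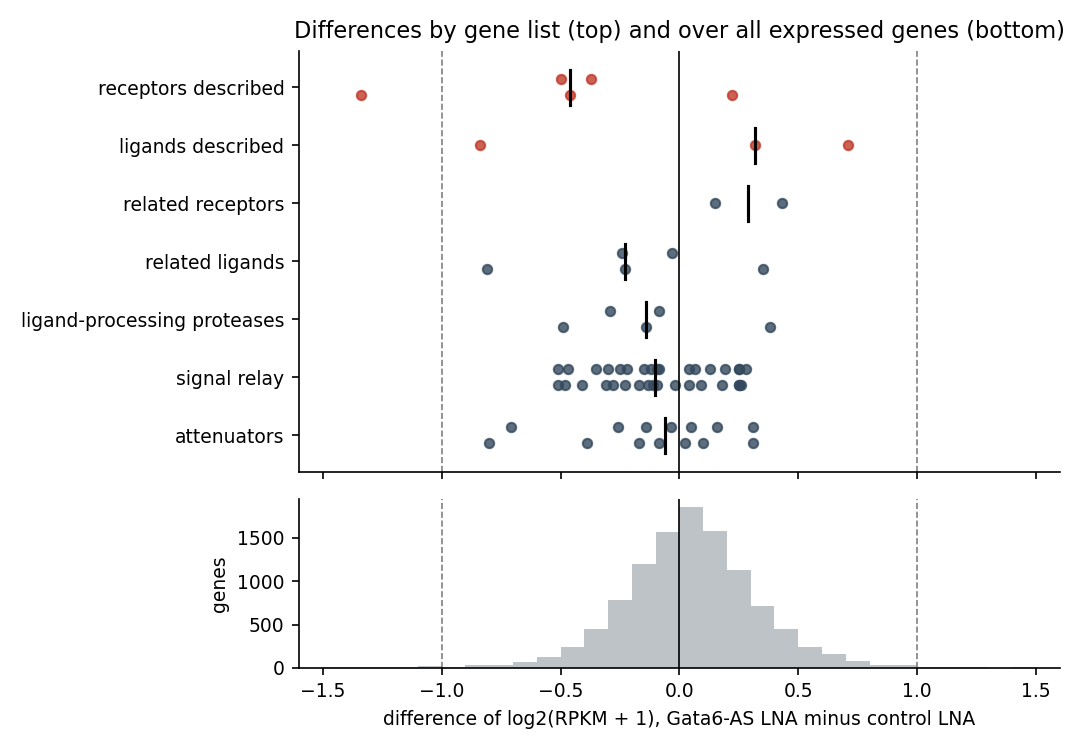
Top, difference of log2(RPKM + 1), Gata6-AS LNA minus control LNA, of each expressed gene by list, with a black bar at the list's median and dashed lines at -1 and 1; bottom, the same difference for all expressed genes, shown between -1.6 and 1.6. Kit is the point below -1 and Pdgfa the ligand at 0.71, while the signal relay genes lie between -0.51 and 0.28.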

How the data were processed

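The authors deposited RPKM values for 26127 genes in 2 libraries, per the file headers, and a second table in which the deposited columns are a log2 value per library, the log2 difference and a p-value. TopHat and mm9 are named in the submitters' processing notes. The counting tool, annotation, use of strand and treatment of duplicates are unknown from these sources. Counting without strand would add reads of overlapping genes to a value.

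Depth was found from genes whose RPKM times span (under 3000 bp) was a whole number of equal steps, 897 genes in the Gata6-AS LNA and 838 in the control LNA library. The least reads behind a gene are the smallest whole numbers giving both values at 1 length of at most 30000 bp (tolerance 0.0002 reads plus a relative 1.5e-07). Intervals of ratios use these numbers, so they are as wide as or wider than true counts would give. For 3 members the union of GENCODE M21 exons is a length that gives whole reads. The floor at 0 is 3 reads.

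Differences are of log2(RPKM + 1), for genes with a mean of 1 RPKM or more. Members and lists were chosen with earlier results of these data known. Of 129 list entries, 127 matched by symbol and 2 by RefSeq synonym. All members were to be named, with expressed related receptors and ligands and the 4 genes furthest from 0 in each other related list. Expressed genes within 1 Mb of the cluster were to be named too. Related receptors and ligands below a mean of 1 RPKM were named in addition. Among the markers, the highest of each list was to be named, and the other markers named were chosen after their values were seen. Alternatives were pseudocounts of 0.1 and 0.5 RPKM, other scalings, other filters and a 1.5-fold limit. Python 3.11.15, scipy 1.17.1 and matplotlib 3.10.9 were used.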

Additional observations from a re-analysis of the deposited data

How the results depend on the processing

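With a pseudocount of 0.1 or 0.5 RPKM in place of 1, the members at least 2-fold lower numbered 2, with Kitl joining Kit, since Kitl is near 1 RPKM. A 1.5-fold limit gave 2 members lower and 1 higher, and 3 genes of the related lists lower. Under the other scalings and filters Kit alone was 2-fold lower and 0 were 2-fold higher. The median difference of the members was -0.45 with a pseudocount of 0.1 RPKM, -0.46 with the median of expressed genes set to 0, -0.46 over the 3 members above a mean of 5 RPKM and -0.22 with no filter, where 10 members count. Of 46 recomputed differences of single members, 45 kept their sign. The exception was Pdgfb, at -0.011 with the median of expressed genes set to 0. A change of pseudocount cannot change a sign, and the authors' differences rest on the same reads. The count of kept signs is therefore no measure of how firm the directions are. Depth limits Pdgfb and Pdgfc, and intervals of other members say nothing of variation between cultures. No paired analysis was possible because each group has 1 library.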
